A study of Homo sapiens with 12 samples.

Results

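Very short introns, here those of 150 nt or less, leave the spliceosome little pre-mRNA between the 5′ splice site, the branch point and the 3′ splice site. Their retention was followed here in MEC1 cells, a human B cell line established from chronic lymphocytic leukaemia, with wild-type SF3B1 (WT) or SF3B1 K700E, after H3B-8800 or its solvent DMSO. The members were the intron retention events of 150 nt or less with at least 20 reads for and against the intron in each of the 12 samples; introns whose upstream and downstream ends gave unbalanced reads (p under 0.05) in more than 6 samples were left out. The deposited table held 721551 splicing events, of which 192965 were introns and 16937 of those were 150 nt or less. Of these, 8586 had enough reads, 253 were dropped for unbalanced ends and 8333 remained. They lay in 3361 genes, were 51 to 150 nt long (median 98, middle range 86 to 118) and none shared a splice site with another. By GENCODE annotation 8195 lay between coding exons, 59 in 5′ and 26 in 3′ untranslated regions, and 53 in noncoding RNAs. Neither the length nor the read rule used the retention level, so each intron could be tested between the groups. The members were chosen with earlier results of these data known, so their shares beside those of other introns are a description. The balance rule used reads of the intron ends and can depend on the level. Without it the share of short introns called higher after the drug, as defined below, was the same, 36.2% in WT and 35.3% in K700E.

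SF3B1 is a subunit of the U2 small nuclear ribonucleoprotein, the particle that recognises the branch point of an intron before the first splicing step. K700E is the recurrent SF3B1 substitution of chronic lymphocytic leukaemia and myelodysplastic neoplasms and is known for the use of cryptic 3′ splice sites. H3B-8800 is an oral small molecule that binds the SF3B complex at the branch point pocket and modulates splicing. Short introns with GC-rich surroundings are thought to be recognised as units across the intron, while the exons between long introns are recognised across the exon. An intron that is not removed stays in the polyadenylated RNA, where it can be read as exon-intron junctions.

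There were 4 groups of 3 samples: WT with DMSO, WT with 75 nM H3B-8800, K700E with DMSO and K700E with 75 nM H3B-8800, each for 6 h. The WT samples carried the codes a, b and 34b; a and b were labelled SF3B1 WT and 34b was labelled WT with c.2106G>A. The K700E samples carried the codes 41, 38 and 15b and were all labelled with c.2098A>G and c.2106G>A. The change c.2106G>A was therefore in every K700E sample and in 1 of the 3 WT samples, and the genotypes differed by K700E and, in the other 2 WT samples, by this second change as well. Each code was used once with DMSO and once with the drug. Each genotype thus rests on 3 codes of 1 cell line, and the p-values measure only the spread between these samples. Polyadenylated RNA was sequenced from stranded libraries, in 3 runs per sample that were pooled.

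The samples had between 45840233 and 56676172 exon-exon junction reads, and the members had a median of 272.4 reads per intron and sample. At 272 reads the 95% Wilson interval of a level was 0.38% to 3.19% for 3 reads with the intron, 6.91% to 14.06% for 27 and 44.1% to 55.9% for 136; these intervals cover counting error only. The labelled cell type was checked on RPM, the spliced reads of a gene scaled to the library's junction reads: the 10 B cell markers summed to 4207.98 to 7080.48 RPM, 9 T and NK cell markers to 7.38 to 36.66 RPM with 1 at 0 in every sample, 7 myeloid markers to 1.26 to 6.84 RPM, and 8 fibroblast and epithelial markers to 18.05 to 29.47 RPM. CD79A, a chain of the B cell receptor, was at 136.06 to 294.19 RPM and the T cell marker CD3E at 0.15 to 0.97 RPM.

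The first sequences show introns with large increases after the drug, chosen from the largest changes and the shortest members. They are written 5′ to 3′ on the transcript strand from GENCODE 29 transcripts that hold the intron within an exon (GRCh38, hg38), with the first 8 and last 2 intron bases in capitals. The coordinates are those of the intron: MCOLN1 (117 nt, chr19:7528704-7528820, plus strand, 65.8% GC), RELB (138 nt, chr19:45034313-45034450, plus strand, 67.4% GC), SMTN (78 nt, chr22:31095456-31095533, plus strand, 60.3% GC), TOP3B (144 nt, chr22:21962603-21962746, minus strand, 64.6% GC), TACC3 (115 nt, chr4:1744833-1744947, plus strand, 65.2% GC) and PLXNB2 (66 nt, chr22:50281500-50281565, minus strand, 78.8% GC). All 6 start with GT and end with AG, and all are above 60% GC.
MCOLN1: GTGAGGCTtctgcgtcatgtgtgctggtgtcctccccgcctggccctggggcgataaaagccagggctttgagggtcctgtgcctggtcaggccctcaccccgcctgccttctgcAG
RELB: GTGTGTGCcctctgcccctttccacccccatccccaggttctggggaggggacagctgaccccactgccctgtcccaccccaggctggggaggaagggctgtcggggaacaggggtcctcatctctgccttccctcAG
SMTN: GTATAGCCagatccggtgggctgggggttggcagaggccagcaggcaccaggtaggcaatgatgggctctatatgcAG
TOP3B: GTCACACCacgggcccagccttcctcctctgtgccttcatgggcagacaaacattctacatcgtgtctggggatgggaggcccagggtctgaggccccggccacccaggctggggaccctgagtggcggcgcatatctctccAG
TACC3: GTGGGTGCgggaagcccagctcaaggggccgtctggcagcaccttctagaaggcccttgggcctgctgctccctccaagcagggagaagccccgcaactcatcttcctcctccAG
PLXNB2: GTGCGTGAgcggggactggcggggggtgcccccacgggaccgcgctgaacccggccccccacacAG

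The next set holds 3 deeply read introns that changed by less than 2 points and 3 introns whose retention fell after the drug. These were EEF1A1 (89 nt, chr6:73518265-73518353, minus strand, 31.5% GC), RPLP0 (114 nt, chr12:120198740-120198853, minus strand, 51.8% GC) and RPL6 (81 nt, chr12:112408339-112408419, minus strand, 42% GC), then PHYKPL (77 nt, chr5:178224565-178224641, minus strand, 59.7% GC), ACADVL (95 nt, chr17:7222082-7222176, plus strand, 61.1% GC) and ENOSF1 (97 nt, chr18:691107-691203, minus strand, 43.3% GC). The ACADVL intron starts with GC in place of GT. The 3 introns with little change had a lower GC content than the 6 above, which describes these chosen examples only. Intron GC content was not compared over the members.
EEF1A1: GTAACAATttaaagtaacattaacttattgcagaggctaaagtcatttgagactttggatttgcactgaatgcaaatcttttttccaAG
RPLP0: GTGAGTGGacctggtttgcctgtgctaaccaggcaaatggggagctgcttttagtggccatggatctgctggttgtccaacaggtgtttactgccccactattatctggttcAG
RPL6: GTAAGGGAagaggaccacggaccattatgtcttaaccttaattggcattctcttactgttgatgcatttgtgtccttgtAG
PHYKPL: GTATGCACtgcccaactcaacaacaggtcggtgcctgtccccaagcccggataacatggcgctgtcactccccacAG
ACADVL: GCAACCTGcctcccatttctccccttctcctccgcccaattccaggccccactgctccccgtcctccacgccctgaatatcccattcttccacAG
ENOSF1: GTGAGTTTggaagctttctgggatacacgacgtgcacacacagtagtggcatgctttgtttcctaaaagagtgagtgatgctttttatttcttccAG

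The last set holds introns that differed between the genotypes in DMSO, SUN1 (142 nt, chr7:852668-852809, plus strand, 45.1% GC) and RFNG (75 nt, chr17:82049843-82049917, minus strand, 72% GC), and introns with the ends of the minor spliceosome, which uses the U12 particle. A U12-type start was searched as ATATCCTT or GTATCCTT at the first intron base, on the transcript strand only. It was found in 5 of the 1944 members with same-strand intron sequence, and these 5 were NOP2, ARL16, ZDHHC5, EDC4 and TAF1C. Of these, NOP2 (99 nt, chr12:6563515-6563613, minus strand, 51.5% GC) and ARL16 (98 nt, chr17:81683595-81683692, minus strand, 72.4% GC) run from AT to AC, while ZDHHC5 (131 nt, chr11:57690204-57690334, plus strand, 50.4% GC) and EDC4 (108 nt, chr16:67881846-67881953, plus strand, 58.3% GC) run from GT to AG. The U12-type branch sequence CCTTAAC was in the last 50 bases of 4 of the 1944 members (0.206%), and the looser string CTNAC in 659 (33.9%); neither string contains the other. A match is a description of the letters and not a mapped branch point.
SUN1: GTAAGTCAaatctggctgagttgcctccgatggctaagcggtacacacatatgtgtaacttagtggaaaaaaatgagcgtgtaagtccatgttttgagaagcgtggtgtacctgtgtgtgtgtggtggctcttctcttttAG
RFNG: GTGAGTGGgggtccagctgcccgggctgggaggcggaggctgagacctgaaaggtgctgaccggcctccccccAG
NOP2: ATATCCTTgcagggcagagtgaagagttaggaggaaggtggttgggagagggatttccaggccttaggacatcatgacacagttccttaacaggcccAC
ARL16: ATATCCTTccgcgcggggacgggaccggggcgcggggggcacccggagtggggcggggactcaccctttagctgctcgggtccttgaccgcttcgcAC
ZDHHC5: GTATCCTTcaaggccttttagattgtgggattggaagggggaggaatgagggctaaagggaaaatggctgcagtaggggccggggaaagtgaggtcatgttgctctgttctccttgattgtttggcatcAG
EDC4: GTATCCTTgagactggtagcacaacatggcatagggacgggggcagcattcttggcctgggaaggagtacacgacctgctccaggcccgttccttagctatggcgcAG

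Median retention of the short introns was higher with H3B-8800 than with DMSO in every sample of both genotypes. The retention level is the percent of reads at the intron that hold it. The median over the 8333 members was 0.83%, 1.09% and 1.10% in the WT DMSO samples and 6.15%, 7.24% and 7.84% in the WT H3B-8800 samples. It was 1.05%, 1.10% and 1.21% in K700E DMSO and 7.48%, 7.75% and 6.67% in K700E H3B-8800. The drug and DMSO samples did not overlap, while the WT and K700E samples overlapped under either treatment. Over all 76188 tested introns the sample medians were lower, at 0.38% to 0.57% with DMSO and 1.99% to 2.88% with the drug.

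The increase was not confined to the middle of the distribution. Between 663 and 866 members were retained at 10% or more in the WT DMSO samples, against 3323 to 3716 in WT H3B-8800, and 761 to 880 in K700E DMSO against 3404 to 3680 in K700E H3B-8800. At 50% or more there were 58 to 72 members in WT DMSO and 585 to 764 in WT H3B-8800. The corresponding K700E counts were 70 to 80 and 577 to 638. Summed over members, exon-intron junction reads made up 1.33% to 1.72% of the junction reads in DMSO and 4.74% to 6.59% with the drug. The upstream end of the intron gave 46.96% to 47.96% of these exon-intron reads in all 12 samples.

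**Figure D1:**
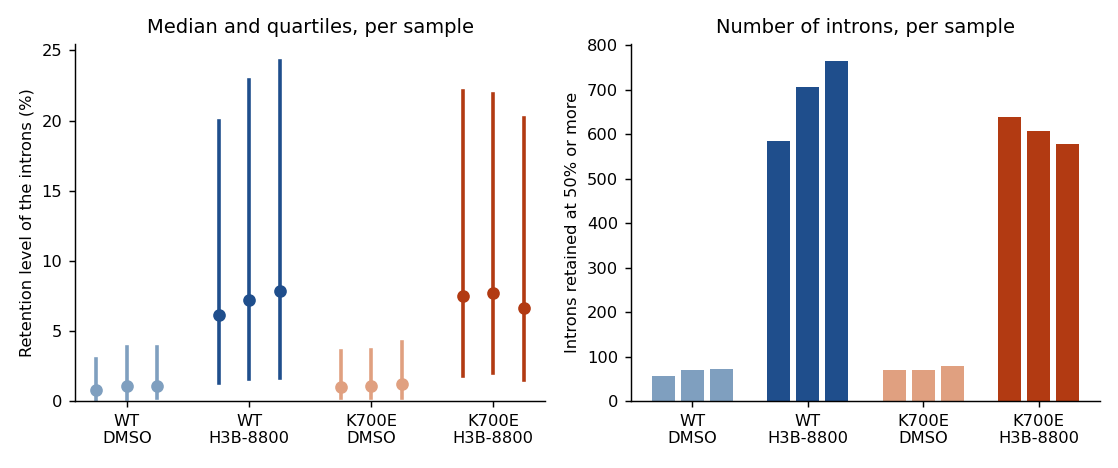
Retention level (percent) of the 8333 short introns in each of the 12 samples, as median and quartiles (left), and the number of introns at 50% or more (right). The WT H3B-8800 medians of 6.15% to 7.84% and the K700E H3B-8800 medians of 6.67% to 7.75% lie above all DMSO medians of 0.83% to 1.21%.

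In WT cells H3B-8800 raised the retention of 3014 members (36.2%) and lowered that of 11 (0.132%). An intron counted as called when limma gave a p under 0.05 after Benjamini-Hochberg adjustment over all 252137 tested events and its level changed by 10 points or more, and rose and fell are used below of called introns. Over all tested introns 18.9% were called higher and 0.209% lower, and over all events 6.2% higher and 7.6% lower. The median change was 5.13 points over the members and 1.3 points over all tested introns. In K700E cells 2943 members (35.3%) were called higher and 11 lower, where 18.7% of all introns were called higher and 0.214% lower (all events 6.18% and 7.3%). The median change was 5.22 points, against 1.43 points over all introns. The members' calls fell in 1421 genes in WT and 1412 in K700E, and the level was higher by any amount in 7568 members in WT and in 7676 in K700E.

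Of the members called higher, 2747 were called in both genotypes, which was 91.1% of the WT and 93.3% of the K700E calls. Of those lowered, 7 were shared (63.6% of each). The 463 members called higher in only 1 genotype changed by a mean of 8.2 points in the other, and 432 of them by 5 points or more. Across the 8333 members the changes of the 2 genotypes, which share no sample, had a Pearson correlation of 0.97 and a Spearman correlation of 0.96, both across introns, which are not independent replicates. The difference between the genotypes' drug effects was called in no member with limma on the log odds, where 0.0% of all introns were called higher in K700E and 0.00394% lower (all events 0.00317% and 0.00278%). An unadjusted p under 0.05 was found in 532 of the 8333 members and in 4775 of all 76188 introns. Tested on percentage points in place of log odds, 3 members had a larger change in K700E and 12 a smaller one. Of all 76188 introns 16 had a larger and 69 a smaller change, and of all 252137 events 234 and 159.

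The largest WT change was in intron 25 of 44 of MED12, a subunit of the kinase module of Mediator. This 100 nt intron (chrX:71129216-71129315, plus strand) was retained at 6.94%, 7.10% and 7.59% in WT DMSO, 92.5%, 86.9% and 87.5% in WT H3B-8800, 7.24%, 8.08% and 12.6% in K700E DMSO, and 85.8%, 86.6% and 75.4% in K700E H3B-8800. The drug samples lay above all DMSO samples, and retention rose by 81.8 points in WT (log2 odds 6.61 ± 0.37 SE, adjusted p = 3.52e-07) and 73.3 points in K700E (log2 odds 5.55 ± 0.37 SE, adjusted p = 1.13e-06). In MAST3, a serine/threonine kinase of the microtubule-associated family, the intron (chr19:18124149-18124264, plus strand) read 0.86%, 2.21% and 2.14% in WT DMSO, 69.8%, 81.8% and 82.5% in WT H3B-8800, 1.51%, 1.31% and 0.62% in K700E DMSO, and 81.1%, 96.7% and 88.2% in K700E H3B-8800. Only traces of it were left in with DMSO and most transcripts held it with the drug, a rise of 76.3 points in WT (log2 odds 7.28 ± 0.57 SE, adjusted p = 2.68e-06) and 87.5 points in K700E (log2 odds 9.10 ± 0.57 SE, adjusted p = 7.75e-07). The MAST3 intron had a mean of 91.7 reads per sample. EP400, the ATPase of a chromatin remodelling complex, had no read with its intron 42 in WT DMSO. Its samples were at 0%, 0% and 0% in WT DMSO, 61.8%, 75.1% and 76% in WT H3B-8800, 1.02%, 1.36% and 1.20% in K700E DMSO, and 77.6%, 80% and 66% in K700E H3B-8800. The drug samples lay above all DMSO samples, and the rise was 71 points in WT (adjusted p = 9.84e-08) and 73.3 in K700E (adjusted p = 2.16e-07).

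RELB is the NF-kappaB subunit of the noncanonical pathway, and its intron 10 of 11 was retained at 1.89%, 5.08% and 4.57% in WT DMSO, 74.4%, 82.7% and 78.8% in WT H3B-8800, 9.87%, 3.90% and 11.5% in K700E DMSO, and 83.2%, 78.3% and 77.4% in K700E H3B-8800. The drug samples stood clear of DMSO in both genotypes, with rises of 74.8 points in WT (log2 odds 6.45 ± 0.46 SE, adjusted p = 1.44e-06) and 71.2 points in K700E (log2 odds 5.45 ± 0.46 SE, adjusted p = 4.98e-06). The intron of MCOLN1, a lysosomal calcium channel, read 7.19%, 12.2% and 9.46% in WT DMSO, 82.8%, 86.7% and 87.7% in WT H3B-8800, 9.18%, 7.13% and 12.3% in K700E DMSO, and 80%, 77.3% and 87.6% in K700E H3B-8800. It rose by 76.1 points in WT and 72.1 in K700E (adjusted p = 6.43e-07 and 1.1e-06). RHBDF2, the inactive rhomboid protein that guides the sheddase of TNF, was at 7.15% ± 1.55 with DMSO and 82.9% ± 2.94 with the drug in WT, and its K700E levels were 6.29% ± 1.92 and 80.2% ± 5.74 (SD, n = 3). PAQR4, NEURL4, OSBPL7 and HELZ2 rose by 77.5, 76.7, 75.7 and 70.1 points in WT and by 70.9, 72.6, 52.5 and 75.4 in K700E. OSBPL7, an oxysterol-binding protein homologue, had the widest gap between genotypes of these 4, which the test of the difference did not call (adjusted p = 0.475). With DMSO the OSBPL7 intron had 38.1 to 59 reads per sample and the HELZ2 intron 25 to 58, so their DMSO levels rest on few reads.

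Changes of this size were also found in 2 deeply read introns, those of TACC3 and IFRD2. TACC3, a protein of the mitotic spindle, had 1423 reads per sample at its last intron and read 3.47%, 4.29% and 3.79% in WT DMSO, 73%, 77.4% and 73% in WT H3B-8800, 3.52%, 3.57% and 3.78% in K700E DMSO, and 77.4%, 76% and 71.8% in K700E H3B-8800. Every drug sample was above 70% and every DMSO sample below 5%, a rise of 70.6 points in WT (log2 odds 6.18 ± 0.22 SE, adjusted p = 3.84e-08) and 71.4 points in K700E (log2 odds 6.31 ± 0.22 SE, adjusted p = 4.24e-08). IFRD2, which binds ribosomes, had 1219.5 reads per sample at its intron and levels of 6.88%, 7.44% and 7.23% in WT DMSO, 80.3%, 78.8% and 83.3% in WT H3B-8800, 5.63%, 5.61% and 6.57% in K700E DMSO, and 70%, 72.4% and 72.5% in K700E H3B-8800. The rises of 73.6 and 65.7 points had adjusted p-values of 4.32e-08 and 6.97e-08. With fewer reads per sample, 261.2, the intron of TOP3B, a topoisomerase that acts on DNA and RNA, was at 4.33%, 4.43% and 6.16% in WT DMSO, 82.7%, 74.8% and 78.9% in WT H3B-8800, 3.23%, 3.30% and 4.53% in K700E DMSO, and 70.2%, 68.4% and 72.6% in K700E H3B-8800. It rose by 73.9 and 66.7 points, and its drug samples lay above all its DMSO samples. The other introns among the 12 largest rises of either genotype, with 41.3 to 126.8 reads per sample, were in SMTN, GIGYF1, MAST2 and the antisense RNA NIFK-AS1, with WT rises of 74.7, 72, 72.5 and 75.2 points and K700E rises of 65, 71.4, 73.2 and 61.3 points. Whether the counting used strand is not given in the sources used here, so NIFK-AS1 reads cannot be told from those of the gene opposite. None of the introns named among the 12 largest rises of either genotype lost its call under any alternative.

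**Figure D2:**
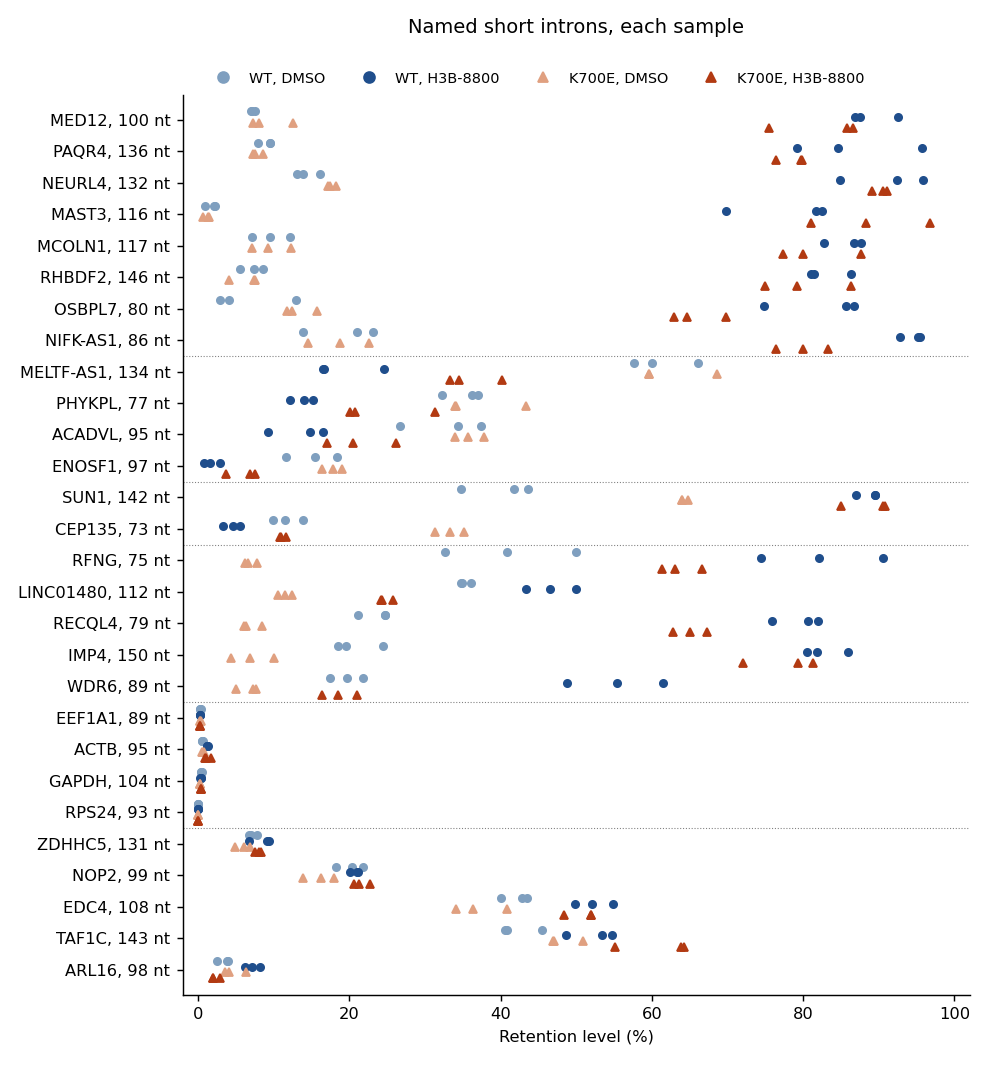
Retention level (percent) of named short introns in each sample, a point per sample with the colour and shape of its group; dotted lines separate the introns that rose, fell, were higher or lower in K700E, changed by under 2 points, or had a U12-type start. In MED12 and MCOLN1 the drug samples lie above 70% and the DMSO samples below 15%, and in PHYKPL and ACADVL the drug samples lie below the DMSO samples of the same genotype.

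Retention fell at 11 members in each genotype, all of which were partly retained with DMSO, since a fall of 10 points needs a higher level to start from. In PHYKPL, a phospholyase of hydroxylysine breakdown, the levels were 32.2%, 36.3% and 37% in WT DMSO, 12.1%, 15.2% and 14% in WT H3B-8800, 34%, 34% and 43.3% in K700E DMSO, and 31.3%, 20.7% and 20.1% in K700E H3B-8800. The drug samples lay below all DMSO samples, and the level fell by 21.4 points in WT (adjusted p = 0.000779) and 13.1 in K700E (adjusted p = 0.0305, and 0.0617 with the sample code as a block). The K700E call was lost in 5 of 21 alternatives, 3 of which left out 1 sample, with an adjusted p of up to 0.108. ACADVL, the mitochondrial very long chain acyl-CoA dehydrogenase, read 26.8%, 34.4% and 37.4% in WT DMSO, 9.29%, 16.5% and 14.7% in WT H3B-8800, 35.6%, 34% and 37.8% in K700E DMSO, and 26.2%, 20.5% and 17.1% in K700E H3B-8800 at the intron that starts with GC. It fell by 19.3 points in WT (adjusted p = 0.00141) and 14.6 in K700E (adjusted p = 0.0193); the K700E call was lost in 3 of the 12 fits that left out 1 sample, with an adjusted p of up to 0.0682. The intron of ENOSF1, an enolase superfamily enzyme, was at 11.7%, 15.4% and 18.4% in WT DMSO, 2.96%, 0.75% and 1.60% in WT H3B-8800, 19%, 16.3% and 17.9% in K700E DMSO, and 6.86%, 7.55% and 3.63% in K700E H3B-8800. It fell by 13.4 points in WT and 11.7 in K700E (adjusted p = 0.000148 and 0.00634).

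Both measured short introns of the antisense RNA MELTF-AS1 fell, by 42 and 19.9 points in WT and 26.6 and 28.9 in K700E, with the same limit on strand. MUTYH, a DNA glycosylase of base excision repair, fell from 36.5% ± 3.61 to 24.4% ± 7.61 in WT (SD, n = 3, adjusted p = 0.0499, 0.0619 with the block, and the call lost in 13 of 22 alternatives, 9 of which left out 1 sample, with an adjusted p of up to 0.179) and from 41.1% ± 1.24 to 25% ± 4.96 in K700E (adjusted p = 0.02); the K700E call was lost in 2 of the fits that left out 1 sample. PIDD1, a death domain protein induced by p53, fell by 22.5 points in K700E (adjusted p = 0.0068), and its WT change of -6.65 points did not pass (adjusted p = 0.35). CEP135, a centriole protein, fell by 22.1 points in K700E and changed by -7.25 in WT, below the 10 points a call needed. The difference between the genotypes was not called for PIDD1 (adjusted p = 0.828) or CEP135 (adjusted p = 0.9).

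At the other end, 2436 members changed by less than 2 points and were called in neither genotype. Their median level in WT DMSO was 0.16%, against 3.42% for the members called higher in WT, and their flanking exons had a median GC content of 48% against 58%. The deepest of them were introns of housekeeping genes. The intron of EEF1A1, the translation elongation factor that brings tRNA to the ribosome, had 179260.4 reads per sample and read 0.30%, 0.35% and 0.27% in WT DMSO, 0.24%, 0.24% and 0.24% in WT H3B-8800, 0.30%, 0.34% and 0.25% in K700E DMSO, and 0.29%, 0.26% and 0.19% in K700E H3B-8800. The WT DMSO samples lay slightly above the WT drug samples, and the K700E groups overlapped; the changes of -0.07 and -0.05 points did not pass (adjusted p = 0.17 and 0.275). RPLP0, a stalk protein of the large ribosomal subunit, was at 2.15%, 2.53% and 2.04% in WT DMSO, 1.97%, 2.37% and 2.14% in WT H3B-8800, 1.56%, 1.77% and 1.91% in K700E DMSO, and 1.80%, 2.33% and 1.88% in K700E H3B-8800, and its drug and DMSO samples overlapped in both genotypes. RPL6, another protein of that subunit, went from 0.48% ± 0.08 to 0.19% ± 0.04 in WT (SD, n = 3), a change of -0.28 points with an adjusted p of 0.000528. ACTB, GAPDH, PPIA, RPS24 and RPS7 changed by 0.66, -0.05, 0.70, -0.01 and 0 points in WT. These genes have processed pseudogenes, intronless copies whose reads could be counted with the spliced form, so their levels are less certain than their depth alone would give.

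The share of members that rose differed little with length above 80 nt and was higher below. In WT it was 44% of the 50 introns of up to 70 nt, 45.4% of the next 933 of up to 80 nt, 36.4% up to 90 nt, 33.8% up to 100 nt, 34.1% up to 120 nt and 35.2% up to 150 nt. The introns of 71 to 80 nt started from a median of 2.84% in WT DMSO and reached 13.17%, while those over 100 and up to 120 nt went from 0.78% to 5.91%. Longer introns outside the length rule were called higher in 36.1% of cases up to 300 nt, 24.5% over 300 and up to 1000 nt, 13.7% over 1000 and under 5000 nt, and 4.45% at 5000 nt or more. At the edge of the rule the share was 34.2% of the 284 introns within the last 5 nt inside it and 36.9% of the 263 introns within the first 5 nt outside it. The limit of 150 nt therefore marked no step in these data. Across members the Spearman correlation of length with the change was -0.05 in WT and -0.04 in K700E.

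**Figure D3:**
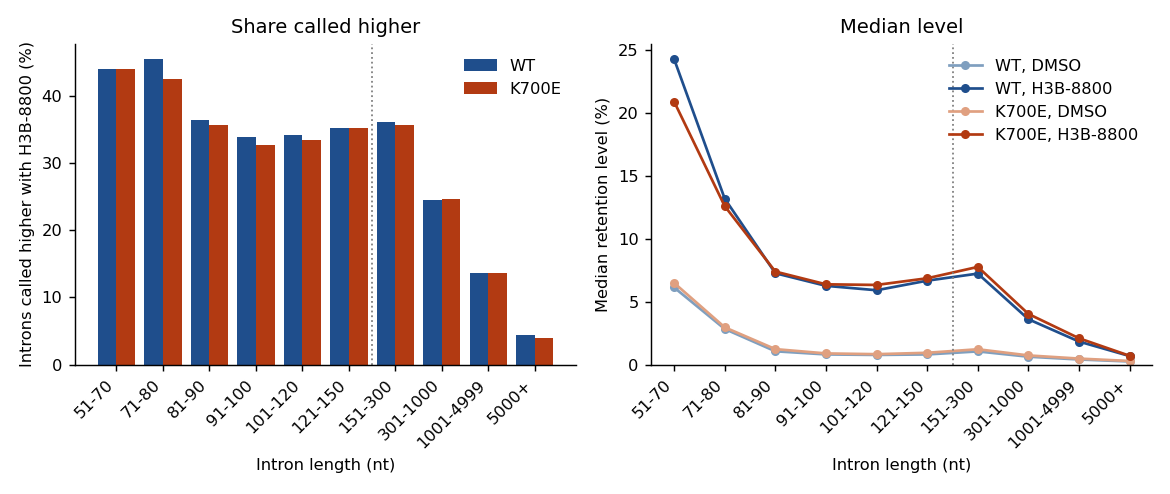
Percent of introns called higher after H3B-8800 by intron length class (bars, WT and K700E), for the short introns and the longer tested introns. In the left panel the WT share is 45.4% at 71 to 80 nt, between 33.8% and 36.4% from 81 to 300 nt, and 4.45% at 5000 nt or more; the right panel gives the median level of each group (percent) over the same classes, and the dotted line marks the 150 nt limit.

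The shortest members took the extremes. LINC01001 (51 nt) and RP11-50B3.4 (55 nt), both noncoding, were read as fully retained in all 12 samples, and PGGHG, a glucosidase of hydroxylysine-linked sugar, was at 97.46% to 100% at its 57 nt intron. The 60 nt intron annotated in BAK1, a mitochondrial apoptosis effector, starts with GA and ends with TG and was at 99.8% ± 0.23 in WT DMSO and 96.9% ± 1.16 with the drug (SD, n = 3), a change of -2.92 points (adjusted p = 0.0005) that was below 10 points. A 66 nt intron of PLXNB2, a semaphorin receptor, read 3.99%, 4.05% and 8.01% in WT DMSO, 44.6%, 44.9% and 45.2% in WT H3B-8800, 10.4%, 5.01% and 13.1% in K700E DMSO, and 29.6%, 44.1% and 41.6% in K700E H3B-8800. Its drug samples lay above its DMSO samples, with rises of 39.6 points in WT (log2 odds 3.74 ± 0.42 SE, adjusted p = 3.04e-05) and 28.9 points in K700E (log2 odds 2.57 ± 0.42 SE, adjusted p = 0.000467). The other 66 nt intron, in PKD1, the gene of polycystin, had overlapping groups and changes of -2.56 and 0.77 points (adjusted p = 0.55 and 0.737). PKD1 has near-identical pseudogenes, so its reads may be split between copies.

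The 5 introns with a U12-type start changed by at most 13.7 points in either genotype. NOP2, an rRNA methyltransferase, read 18.3%, 20.3% and 21.8% in WT DMSO, 20%, 21% and 21.1% in WT H3B-8800, 18%, 16.2% and 13.8% in K700E DMSO, and 20.7%, 22.8% and 21.3% in K700E H3B-8800 at its AT-AC intron. The WT groups overlapped, and the changes of 0.59 and 5.56 points did not pass (adjusted p = 0.849 and 0.0564). ARL16, a small GTPase, changed by 3.75 points in WT and -2.33 in K700E, and ZDHHC5, a palmitoyltransferase, by 1.28 and 2.04; none of these was called. EDC4, a scaffold of mRNA decapping, went from 42.1% ± 1.79 to 52.2% ± 2.51 in WT (SD, n = 3), a rise with an adjusted p of 0.0444 that became 0.0704 with the block and was lost in 12 of 22 alternatives. Its rise in K700E was 13.7 points (adjusted p = 0.0107). TAF1C, a subunit of the RNA polymerase I factor SL1, rose by 12.7 points in K700E (adjusted p = 0.0265, lost in 5 of 22 alternatives) and changed by 9.91 in WT (adjusted p = 0.0719). The number of such introns is 5, and the share called among them was not tested against the others.

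The GC content of the exon ends on either side of the intron, 50 nt each, went with the share of members that rose. With up to 40% GC 12% of 1044 introns were called higher in WT, and the share went through 16.7%, 25.5%, 39.7%, 45% and 47.9% in steps of 5 GC percent to 54.3% of the 680 introns with over 65% GC. The K700E shares ran from 12.4% to 51.8% over the same classes. The median WT DMSO level moved with it, from 0.30% to 2.70%, and the median read number was 245.8 in the lowest class, 386.6 at 45 to 50% and 129.5 in the highest. The shares were therefore also taken within classes of read number and DMSO level. Among the 1667 least-read members the shares were 15.7%, 44.8% and 52.5% for under 50%, 50 to 60% and 60% GC or more, and among the 1667 most-read 12.5%, 28.3% and 23.8%. Among members at 0 to 0.5% in WT DMSO they were 3.77%, 11.6% and 15.6%, and at 5 to 10% they were 56.3%, 76.3% and 79.6%.

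The gradient was also present outside the short introns. Introns over 150 and up to 1000 nt were called higher in WT in 15%, 34.4% and 46.5% of cases over the same 3 GC classes, against 16.8%, 41.9% and 48.8% for the members. Introns of 5000 nt or more reached 3.62%, 5.05% and 8.65%. Over the members the Spearman correlation of flanking GC with the change was 0.35 in WT and 0.33 in K700E. Base composition of the introns themselves was not compared over the members, since only 24.7% of them had intron sequence in a transcript.

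**Figure D4:**
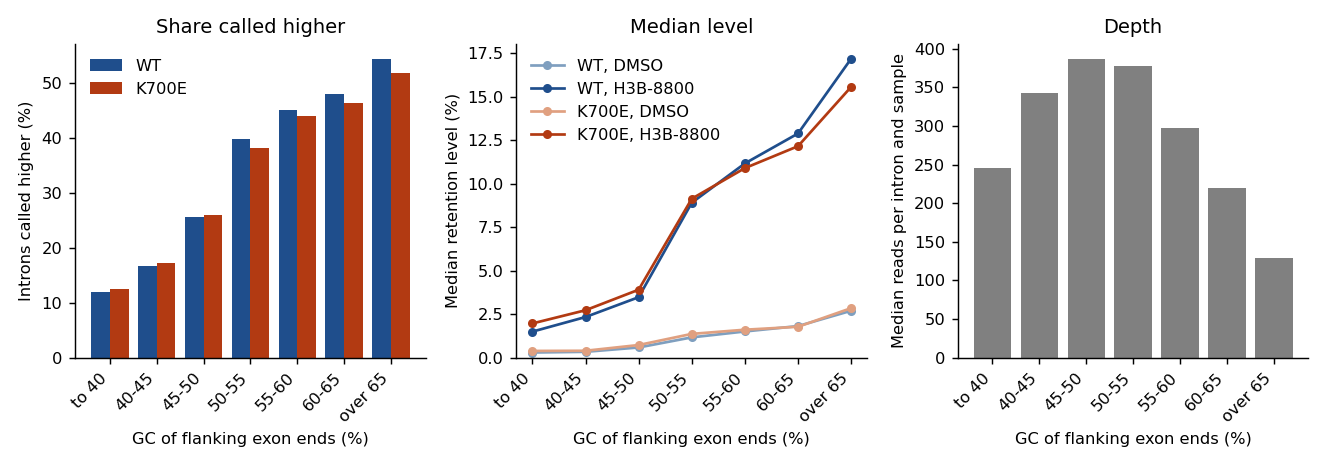
Percent of short introns called higher after H3B-8800 by GC content of the flanking exon ends (50 nt on each side), for WT and K700E (left, bars), with the median level of each group (middle) and the median reads (right) of the same classes. The WT share goes from 12% with up to 40% GC to 54.3% over 65% GC, and the K700E share from 12.4% to 51.8%.

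The share called also went with the level in DMSO. Among members at 0 to 0.5% in WT DMSO 8.68% were called higher in WT, and at 5 to 10%, 10 to 20% and 20 to 50% the shares were 74.8%, 73.9% and 75.8%. The WT DMSO level and the WT change share the DMSO samples. The same level had a Spearman correlation of 0.61 with the change in K700E, which shares no sample with it. Both changes are in points, and an equal change in odds moves a level near 0% by few points. The relation is therefore partly built into the scale in both genotypes. Members held within an exon of a GENCODE transcript, that is already annotated as retained, were called in 51.1% of 1944 cases against 31.6% of the other 6389. Their median WT DMSO levels were 3.98% and 0.65%. Introns that interrupt a codon after its first or second base were called in 37.4% and 39.4%, and those between codons in 33.8%. The median WT DMSO levels were 1.21%, 1.22% and 0.81% in the same order. The last intron of a transcript was called in 40%, the first in 37.6% and those between in 35.7%, with median WT DMSO levels of 1.83%, 1.72% and 0.95%. The part of the DMSO level in the shares by annotation, codon and position was not tested. In 5 equal classes by mean reads, from the least to the most read, the members had shares of 40.7%, 43.2%, 41.2%, 34.1% and 21.7%.

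Most genes with 5 or more members had some short introns called higher and others not. Of the 432 such genes, 57 had none called higher in WT, 28 had all and 347 had some, and the median gap between a gene's largest and smallest change was 32.1 points. Such a gap grows with the number of members and with counting error. Whether introns of 1 gene were more alike than those of different genes was not tested. CPSF1, the largest subunit of the cleavage and polyadenylation factor, had the most members: 14 of its 30 rose in WT and 13 in K700E, with WT changes from -0.21 to 35.94 points. FLNA, the actin crosslinker filamin A, had 5 of 27 in either genotype. PIEZO1, a mechanosensitive channel, had 13 of 26 in WT and 10 in K700E, and NBEAL2, a BEACH domain protein of platelet granules, 19 of 25 and 17. Within the spliceosome core protein PRPF8 1 of 16 rose in each genotype, and in PTPN23, a phosphatase-like protein of endosomal sorting, 13 of 15 did.

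Some genes rose at every short intron. All 10 members of ACD, the shelterin protein TPP1, rose in both genotypes, by 12.12 to 58.78 points in WT. All 9 members of THOC6, a subunit of the mRNA export complex THO, rose by 35.22 to 53.51 points in WT and 25.37 to 46.61 in K700E. The 6 members of CDC20, the activator of the anaphase-promoting complex, rose by 14.6 to 33.97 points in WT. IFRD2 and DVL2 had 8 of 8 in both genotypes. In contrast none of the 12 members of UBA1, the ubiquitin-activating enzyme, was called, with changes from -0.02 to 2.81 points in WT, and none of the 9 in EIF4G1, TOP2A or SNRNP200. In ACADVL, where 1 intron fell, none of the 12 was called higher, with changes of up to 5.62 points in WT and 8.57 in K700E. Against longer introns of the same gene, the median change of the short introns was larger than that of introns over 1000 nt in 59.3% of 2830 genes in WT and 60.8% in K700E, with medians over genes of 3.39 against 1.5 points and 3.72 against 1.58 points.

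**Figure D5:**
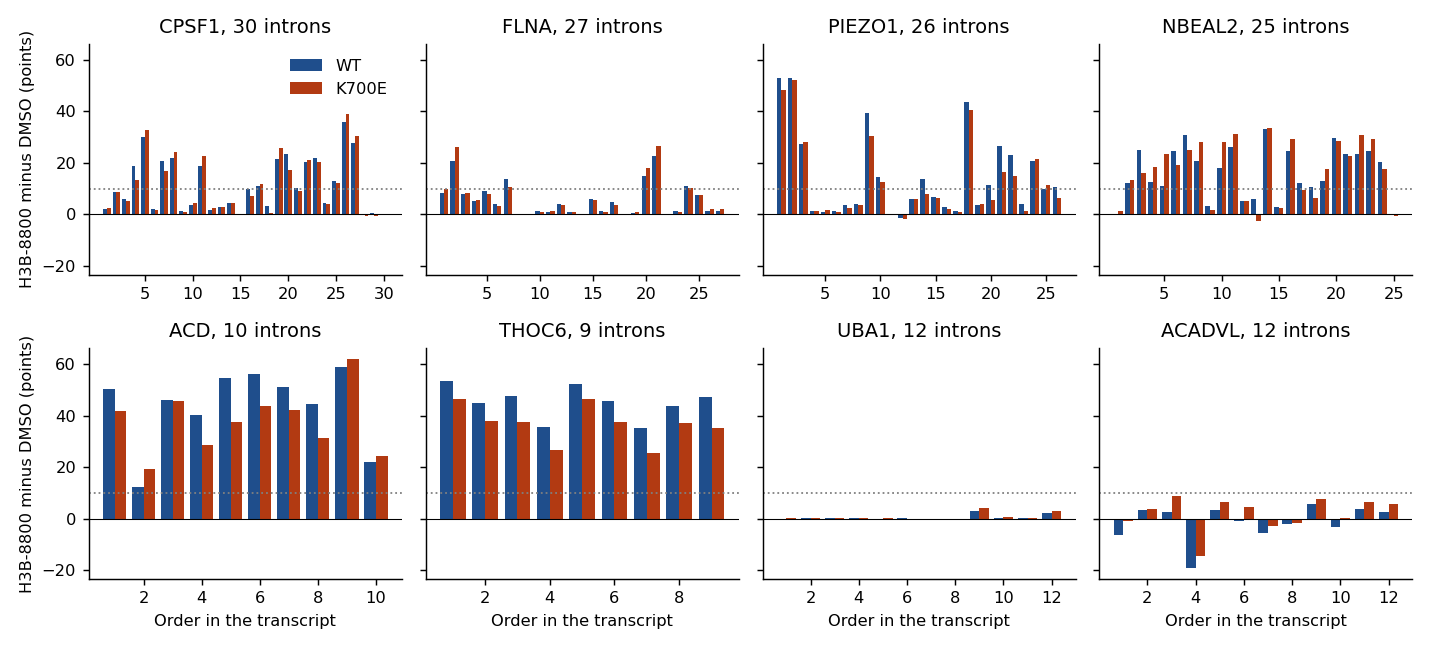
Change in retention level after H3B-8800 (percentage points, WT and K700E bars) of each short intron of 8 genes in transcript order, with a dotted line at 10 points. High and low introns lie side by side in CPSF1, with WT changes from -0.21 to 35.94 points, while all bars of THOC6 lie above 25 points and all bars of UBA1 below 5.

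Over 11 gene lists the share of short introns that rose in WT ranged from 5.43% to 47.8%, beside 36.2% of all members in WT and 35.3% in K700E. The lists also differed in read depth (median 223.2 to 7574.8 reads) and flanking GC (median 48% to 57%), whose part in these shares was not tested. B cell receptor, costimulation and NF-kappaB genes had 43 of 90 members called higher in WT (47.8%) and 38 in K700E, with a median WT change of 9.03 points at a median flanking GC of 57%. Its 3 deepest introns were not called: NFKBIA, the inhibitor of NF-kappaB, changed by -1.69 points, the phosphatase PTPN6 by 6.80 and the receptor chain CD79A by 0.08; the PTPN6 change had an adjusted p of 4.39e-06 and was below 10 points. Cell cycle and mitosis genes had 70 of 178 (39.3%; 69 in K700E; median 6.20 points). CDC20 rose by 19.9 points at its deepest intron (adjusted p = 2.26e-07), whereas the kinases CDK4 and CDK1 changed by 8.87 and 0.01. DNA repair, replication and checkpoint genes had 64 of 183 higher and 1 lower in WT (35%; 61 higher and 2 lower in K700E; median 5.52 points). There the replicative helicase subunit MCM7 rose at intron 4 by 12.8 points in WT and changed by 5.85 in K700E, and the clamp PCNA changed by 1.93.

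Of the genes that make and process mRNA, Mediator, RNA polymerase II and transcript processing genes had 69 of 189 members higher in WT (36.5%; 65 in K700E; median 4.17 points). DDX39B, an export helicase, changed by 9.98 points in WT and rose by 10.8 in K700E, and the poly(A) binding proteins PABPC1 and PABPN1 changed by 0.15 and 3.46. Chromatin regulators had 80 of 220 higher and 1 lower (36.4%; 75 in K700E; median 4.33 points), with WT changes of 1.78, -0.56 and 0.39 points at 3 introns of the acetyl-lysine reader BRD2. SR proteins, hnRNPs and splicing kinases had 26 of 80 (32.5%; 27 in K700E; median 3.10 points), and the deepest introns, in HNRNPA2B1 and HNRNPA1, changed by 0.31, 0.62 and -0.19 points. Spliceosome core and U2 particle genes had 20 of 117 (17.1%; 20 in K700E; median 1.66 points). The short intron of SF3B1 itself read 0.91%, 0.92% and 0.70% in WT DMSO, 0.60%, 0.59% and 0.34% in WT H3B-8800, 0.54%, 0.74% and 0.66% in K700E DMSO, and 0.33%, 0.56% and 0.46% in K700E H3B-8800. It was under 1% in every sample, and U2AF2 and SF1, which bind the 3′ splice site and branch point, changed by 0.65 and 2.22 points.

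Ribosomal proteins and translation factors had the lowest share of the 11 lists, 5 of 92 in either genotype (5.43%; WT median 0.23 points), at a median of 7574.8 reads. Mitochondrial respiratory chain and mitochondrial ribosome genes had 12 of 54 in either genotype (22.2%; median 3.23 points), with ATP5B and ATP5A1, subunits of ATP synthase, at 0.29, 0.17 and 0.30 points. MHC, antigen presentation and proteasome genes had 20 of 86 (23.3%; 19 in K700E; median 3.57 points). HLA-B changed from 1.09% ± 0.14 to 5.55% ± 0.40 in WT (SD, n = 3), HLA-C by 2.79 points and the chaperone calreticulin, CALR, by 6.04; HLA genes are similar enough for reads to be shared. Apoptosis and death receptor genes had 6 of 18 (33.3%; 4 in K700E; median 2.68 points), with CYCS, cytochrome c, and BIRC3, an inhibitor of apoptosis, at 0.01 and 2.90 points.

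Between the genotypes in DMSO few short introns differed. K700E was higher than WT at 2 members and lower at 6, where 0.0354% of all introns were called higher and 0.0249% lower (all events 0.0924% and 0.0448%). An adjusted p under 0.05 was found in 32 of the 8333 members and in 408 of all 76188 introns. An unadjusted p under 0.05 was found in 915 members and in 8012 of all introns. The 2 higher were SUN1 and CEP135. SUN1 is an inner nuclear membrane protein that links the nucleus to the cytoskeleton, and its intron 7 read 34.8%, 41.8% and 43.6% in WT DMSO, 87%, 89.6% and 89.5% in WT H3B-8800, 64.8%, 64% and 64% in K700E DMSO, and 90.5%, 90.8% and 85% in K700E H3B-8800. The K700E DMSO samples lay above all WT DMSO samples, by 24.2 points (adjusted p = 0.0401), but the call was lost in 15 of 22 alternatives, 11 of which left out 1 sample. After the drug it rose in both genotypes to 84.98% or more. CEP135 was at 11.5%, 13.9% and 9.85% in WT DMSO, 3.33%, 5.58% and 4.59% in WT H3B-8800, 31.3%, 35.1% and 33.3% in K700E DMSO, and 11.7%, 10.9% and 10.9% in K700E H3B-8800. The 2 genotypes did not overlap with DMSO and differed by 21.5 points (adjusted p = 0.00524; 0.051 when only the 6 DMSO samples were fitted).

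The introns lower in K700E included RFNG, LINC01480, RECQL4, IMP4 and WDR6. RFNG, a Fringe glycosyltransferase that modifies Notch, read 32.7%, 50% and 40.9% in WT DMSO, 74.5%, 90.6% and 82.1% in WT H3B-8800, 7.81%, 6.54% and 6.25% in K700E DMSO, and 66.7%, 61.3% and 63.1% in K700E H3B-8800. In DMSO K700E differed from WT by -34.3 points, without overlap (adjusted p = 0.00493). LINC01480, a noncoding RNA, read 34.8%, 36.1% and 34.8% in WT DMSO, 43.4%, 46.6% and 49.9% in WT H3B-8800, 11.5%, 12.5% and 10.6% in K700E DMSO, and 24.2%, 24.3% and 25.7% in K700E H3B-8800. Its K700E DMSO samples were all near 11% and its WT DMSO samples near 35%, a difference of -23.7 points (adjusted p = 0.000896). RECQL4, a DNA helicase, changed by -16.6 points (adjusted p = 0.00295), from 23.5% ± 2.03 in WT to 6.98% ± 1.30 in K700E (SD, n = 3).

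WDR6, a partner of a tRNA methyltransferase, read 17.4%, 21.8% and 19.7% in WT DMSO, 48.8%, 61.5% and 55.3% in WT H3B-8800, 5.03%, 7.20% and 7.67% in K700E DMSO, and 18.6%, 21% and 16.4% in K700E H3B-8800. In DMSO K700E differed from WT by -13 points (adjusted p = 0.0132; 0.207 when percentage points were tested), and no sample overlapped. After the drug it rose by 35.6 points in WT and 12 in K700E, yet on the log odds the 2 rises were not called different (adjusted p = 0.893). IMP4, a protein of the U3 processing complex, differed by -13.8 points in DMSO (adjusted p = 0.0487), a call lost in 15 of 21 alternatives. With the drug it reached 72% or more in both genotypes. MCM7 intron 4 was at 6.20% ± 0.47 in WT and 2.64% ± 0.34 in K700E with DMSO (SD, n = 3, adjusted p = 0.0161), a difference below 10 points.

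Spliced reads of many genes with short introns fell after the drug. Of 3340 host genes with at least 50 exon-exon reads on average, 1701 fell and 471 rose in RPM in WT (50.9% lower), where over all 10182 genes 40.8% fell and 18.5% rose. In K700E 1483 host genes fell and 438 rose (44.4% lower), against 35.8% and 16.2% of all genes. Genes without a member fell in 35.9% in WT. Host genes with a member called higher fell in 63.7% of 1412 cases in WT (median log2 change -0.62) and those with none in 41.5% of 1928 (median -0.22); in K700E the shares were 56.3% (median -0.48) and 35.8% (median -0.17). With the junctions of the members themselves left out, the shares for hosts with a called member were 61.4% in WT and 53.2% in K700E. Exon-exon reads at an intron fall when it is retained, and the junctions of longer introns, many also retained, were still counted. These shares therefore do not separate retention from a lower RNA level. Library scaling set the balance: with TMM library sizes 924 host genes rose and 1099 fell in WT, and 881 rose and 942 fell in K700E, as the median over all genes shifted upward, from -0.28 to 0.06 (WT) or from -0.22 to 0.06 (K700E). With this scaling 32.9% of host genes and 26.6% of all genes fell in WT, and 28.2% and 23.5% in K700E. In bulk RNA, fewer cells of a type and less RNA per cell cannot be told apart.

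Some named genes paired a retained intron with fewer spliced reads in RPM and some did not. The values below count all junctions, those of the retained introns included, and use RPM scaling, so both limits just given apply to them. Spliced reads of CDC20 fell by 1.46 ± 0.07 (log2, SE) in WT (adjusted p = 1.46e-07) and by 1.14 ± 0.07 in K700E (adjusted p = 9.97e-07). Those of EP400 fell by 0.80 ± 0.09 and 0.72 ± 0.09. ARL16, whose U12-type intron was not called, fell by 1.49 ± 0.14 in WT. GIGYF1 and HELZ2, with rises of over 70 points at an intron, changed by 0.01 ± 0.17 and -0.03 ± 0.36 in WT, which did not pass (adjusted p = 0.956 for each).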

How the data were processed

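The authors deposited 1 table of splicing events with, for each sample, a percent value (the retention level) and a text field of the reads behind it, per the file headers; samples were the pooled 3 runs, and 72 columns of single runs (36 of percent values) were not used. Cutadapt 2.4 and hg38 are named in the submitters' processing notes; what aligned the reads and called the events, and whether strand was used, is not given in the sources used here. Inclusion and exclusion reads were taken from the text field, and the deposited percent values differed from their ratio by at most 0.0218 points over the members.

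Events with 20 or more reads in all 12 samples and, for introns, balanced ends (252137 events, 76188 introns) were fitted with limma 3.58.1 (R 4.3.3) on log2((inclusion + 0.5)/(exclusion + 0.5)) as 4 groups, with a trend on mean reads and Benjamini-Hochberg adjustment over all events. Host genes were compared by limma on log2 RPM of summed exon-exon reads (0.5 reads added, mean of 50 or more reads), scaled by the summed junction reads. Both fits were tested on simulated data. Depth was 45840233 to 56676172 junction reads per sample.

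The members and the 11 gene lists were chosen with earlier results of these data known. Introns were named by a rule: the 12 largest rises and 4 largest falls per drug comparison, 5 per direction between genotypes, the 6 shortest, the 8 deepest under 2 points, the 3 deepest per list, those with U12-type ends, and the 4 genes with most members; PRPF8, PTPN23, DVL2 and the genes called at all or none of their introns were chosen after their values were seen. The DMSO and drug samples of a number carry the same code in the labels and so were paired in an alternative fit; their deviations from the group means correlated at 0.109, 0.023 and 0.069 in WT and 0.102, 0.072 and 0.085 in K700E over 76188 introns. Alternatives changed the pseudocount, read and balance filters, the scale of the test, weights, the samples fitted, the call size, library scaling and the pairing, and left out each sample in turn.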

Additional observations from a re-analysis of the deposited data

How the results depend on the processing

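Calls of higher retention after H3B-8800 were most affected by the size asked for. With 20 points in place of 10 there were 1842 members higher and 2 lower in WT, 1718 higher and 4 lower in K700E, and 2 lower between genotypes. With 5 points 20 were lower in WT, 21 lower in K700E and 4 higher between genotypes. The shares higher were then 49.3% of members against 28.5% of all introns in WT, and 49.5% against 28.6% in K700E. With 50 reads in all samples 7 were lower in either genotype, beside 108 in WT and 107 in K700E of all 62391 introns. Between genotypes 4 were higher without the balance filter, 1 with weights from read numbers, 1 when only introns were adjusted, and 0 higher and 3 lower when only the 6 DMSO samples were fitted. Over all introns these counts were 57, 21, 27, and 16 higher and 12 lower, in the same order. On percentage points the drug effects differed at 3 members upward and 12 downward, beside 16 upward and 69 downward of all 76188 introns.

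Leaving out 1 sample gave 2867 to 3152 higher and 8 to 12 lower in WT, 2859 to 3016 higher and 7 to 14 lower in K700E (7 without K700E H3B-8800 replicate 3), 1 to 2 higher and 4 to 6 lower between genotypes, and 0 for the difference of drug effects. For host genes it gave 403 to 504 higher and 1512 to 1773 lower in WT, and 384 to 432 higher and 1362 to 1549 lower in K700E. With TMM library sizes 924 were higher and 1099 lower in WT (32.9% lower, against 26.6% of all genes), and 881 and 942 in K700E (28.2% lower, against 23.5%).

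With the sample code as a replicate block, 3009 members were higher and 11 lower in WT and 2938 and 11 in K700E. Under this pairing 714 host genes were higher and 2146 lower in WT (64.3% lower, against 54.5% of all genes), and 726 and 1993 in K700E (59.7% lower, against 51.5%). With the replicate number as a block, 1 member was higher and 6 lower between genotypes. The block ended the call of EDC4 and MUTYH in WT, PHYKPL in K700E and SUN1 between genotypes, and changed no other call of a named intron. No called change of a named intron changed its sign under the alternatives run, while some uncalled changes near 0 did, such as PKD1 in K700E (-1.82 to 4.89 points), NOP2 in WT (-0.34 to 1.43) and RPLP0 in WT (-0.18 to 0.07). The cause of these shifts was not tested; the depth limits levels near 1% to the Wilson intervals given with the results.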
